A study of Mus musculus with 11 samples.

Results

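Very wide open regions are the stretches of accessible chromatin of at least 3000 bp that the deposited region table lists on chromosomes 1 to 19, without chromosomes 11 and 13. There were 2827 of them among 248336 regions in the table, and another 210518 regions on the same chromosomes were narrower. The width is the end minus the start plus 1 of the table's own row, so the choice read no count column. Width and abundance come from the same region calls, however, and are not independent. All libraries were counted over 1 shared list, and a width is therefore a property of that list and not of a line. The assay, ATAC-seq, uses Tn5 transposase to insert sequencing adapters into accessible DNA, and the value of a region is the number of reads the authors counted in it.

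The 11 libraries represent 4 lines of mouse embryonic stem cells, with each library made from 100000 cells by the FAST-ATAC protocol and read at 150 bp. Every line was grown in medium with 15% serum, LIF, 1 µM PD0325901 (an inhibitor of MEK) and 3 µM CHIR99021 (an inhibitor of GSK3). B6 is a C57BL/6J line with 3 libraries, and D2 is a DBA/2J line with 3 libraries. B6-13D2, with 2 libraries, is a line of the congenic strain B6.D2-(rs30079041-rs51756099)/Bakr, in which an interval of chromosome 13 of D2 origin sits on the B6 background. D2-13B6, with 3 libraries, is a line of the reciprocal strain D2.B6-(rs29224292-rs13469455)/Bakr, whose D2 background holds the B6 interval. The series text gives rs51756099 as the distal end of the D2-13B6 interval, where the sample labels give rs13469455. The proximal markers, rs30079041 and rs29224292, also differ between both strains. Comparisons below treat the interval as 1 factor, and effects of any stretch that is not shared cannot be told apart. The labels call all libraries technical replicates of 1 cell line per genotype. Errors and p-values below measure how far libraries of 1 line differ, and a strain effect cannot be told apart from a difference between 2 cell lines.

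In stem cells most open regions are short and mark a single promoter or enhancer. Very wide ones arise where open stretches adjoin, as at promoters that lie in long CpG islands, at divergent or closely packed promoters, over bodies of strongly transcribed genes, and at clusters of enhancers near genes of cell identity. In naive embryonic stem cells the network of Pou5f1, Sox2, Nanog, Klf4 and Esrrb is the best known set of genes with such enhancer clusters. The MEK and GSK3 inhibitors in the medium hold cells in this naive state.

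These stretches of sequence show what the regions contain, all read 5′ to 3′ on the plus strand of GRCm38.p6, with each CpG dinucleotide (the letters CG, which read alike on both strands) in capitals. The first 2 are the 250 bases before the RefSeq start sites of Nanog (chr6:122707239-122707488) and Sox2 (chr3:34649745-34649994), core pluripotency genes whose promoters both lie in very wide regions. They were chosen because their base composition differs. The Nanog window holds 3 CpG and the Sox2 window 27, against a median of 6 over 32851 RefSeq promoter windows of that length, of which 29.0% have fewer CpG than Nanog and 91.4% fewer than Sox2.
Nanog: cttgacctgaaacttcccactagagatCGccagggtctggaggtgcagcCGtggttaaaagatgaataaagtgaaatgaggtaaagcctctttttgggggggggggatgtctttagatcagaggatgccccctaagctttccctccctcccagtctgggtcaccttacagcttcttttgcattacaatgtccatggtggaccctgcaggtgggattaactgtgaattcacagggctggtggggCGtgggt
Sox2: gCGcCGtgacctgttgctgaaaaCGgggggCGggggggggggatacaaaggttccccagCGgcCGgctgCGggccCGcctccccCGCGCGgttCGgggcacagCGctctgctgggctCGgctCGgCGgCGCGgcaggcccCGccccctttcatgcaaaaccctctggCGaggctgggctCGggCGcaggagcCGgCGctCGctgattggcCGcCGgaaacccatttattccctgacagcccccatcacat
The others are the central 300 bases of 4 regions on which the comparisons below turn. They are the region nearest to Ust (chr10:8560001-8560300) and the region over Gm38312 (chr1:89096156-89096455), which had the smallest p-values in each direction between D2 and B6, and the regions nearest to Gm5566 (chr5:149654199-149654498), whose libraries split by interval, and Gm12495 (chr4:53339549-53339848), where all 4 lines lay apart. They hold 4, 8, 6 and 4 CpG, where the median over the central 300 bases was 6 for very wide regions and 4 for all regions.
Ust: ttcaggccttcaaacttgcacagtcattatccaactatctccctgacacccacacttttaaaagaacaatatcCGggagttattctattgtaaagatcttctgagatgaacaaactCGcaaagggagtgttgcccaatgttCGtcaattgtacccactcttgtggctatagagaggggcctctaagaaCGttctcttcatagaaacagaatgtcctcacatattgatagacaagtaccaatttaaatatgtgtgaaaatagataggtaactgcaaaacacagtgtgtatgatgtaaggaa
Gm38312: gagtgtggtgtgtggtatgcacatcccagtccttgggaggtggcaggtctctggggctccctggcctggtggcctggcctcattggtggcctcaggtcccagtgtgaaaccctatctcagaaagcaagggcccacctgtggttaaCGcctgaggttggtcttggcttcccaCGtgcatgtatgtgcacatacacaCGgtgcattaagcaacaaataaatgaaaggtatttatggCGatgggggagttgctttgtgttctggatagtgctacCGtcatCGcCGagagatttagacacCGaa
Gm5566: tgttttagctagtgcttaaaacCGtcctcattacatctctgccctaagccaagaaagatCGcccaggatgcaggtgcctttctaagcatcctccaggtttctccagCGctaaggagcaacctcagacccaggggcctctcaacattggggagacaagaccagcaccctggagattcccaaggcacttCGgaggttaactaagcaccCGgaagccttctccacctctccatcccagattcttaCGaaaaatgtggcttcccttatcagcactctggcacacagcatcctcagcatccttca
Gm12495: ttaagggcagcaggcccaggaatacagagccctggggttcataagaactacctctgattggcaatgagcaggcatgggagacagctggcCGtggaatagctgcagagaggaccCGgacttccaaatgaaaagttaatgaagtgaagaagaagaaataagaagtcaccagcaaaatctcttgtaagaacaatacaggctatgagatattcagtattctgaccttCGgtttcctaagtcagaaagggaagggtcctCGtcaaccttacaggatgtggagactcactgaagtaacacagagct

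Very wide regions were 1.33% of the listed regions and 7.18% of their summed length, or 11.5 Mb. Their width ran from 3000 to 12667 bp with a median of 3686 bp (quartiles 3260 and 4402 bp), while narrower regions had a median of 544 bp. There were 1019 of at least 4000 bp, 426 of at least 5000 bp and 12 of at least 10000 bp. Single chromosomes held 90 to 238, and the density ran from 0.953 per Mb on chromosome 14 to 1.76 per Mb on chromosome 17. They lay close together: 629 had another very wide region within 10000 bp and 1326 within 50000 bp, with a median gap of 61060 bp. At the edge of the rule, 2 regions were exactly 3000 bp wide, an intergenic one 14627 bp from Gm15729 (chr16:32123492-32126491) and an intronic one nearest to Rbpms2 (chr9:65640252-65643251). Just outside it, regions of 2999 bp lay over the promoters of Tmed1 (chr9:21508499-21511497) and of Plekha4 and Ppp1r15a (chr7:45524382-45527380).

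Of the 2827 regions, 1468 (51.9%) lay within 1000 bp of a start of a protein-coding transcript in GENCODE M21 and are called coding promoters, against 7.84% of narrower regions. Another 310 (10.97%) were that near only to the start of an annotated non-coding transcript. The remaining 1049 (37.1%, against 85.3% of narrower regions) were distal, with 251 overlapping an exon, 299 in introns and 499 intergenic, at a median of 8977 bp from the nearest start. The coding promoters served 1596 genes, 11.2% of the 14225 coding genes with any region at their promoter on these chromosomes. At 164 coding promoters the starts of more than 1 coding gene lay within 1000 bp of the region. At 140 (9.54%, against 6.14% of narrower coding promoters) such starts were on both strands. Starts of snoRNA genes, small RNAs often encoded in introns of ribosomal protein and other highly expressed genes, lay near 52 very wide regions (1.84%) and 346 narrower ones (0.164%). The median soft-masked (repeat) share was much alike, at 16.7% of bases in very wide and 15.6% in narrower regions and 24.3% in distal very wide ones. Mostly repetitive regions were fewer, with 66 very wide regions (2.33%) soft-masked over at least 50% of their bases, against 17.2% of narrower ones.

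Sequence composition separated the classes. Very wide regions had a median of 51.2% GC and 21.9 CpG per kb, where narrower regions had 48.1% and 12.3. Coding promoters held 41.3 CpG per kb, non-coding start sites 15.6 and distal regions 12.8. A base was counted as CpG island where it lay in a 200 bp window of at least 50% GC with a ratio of observed to expected CpG of at least 0.6. By this measure the median coding promoter was island over 46.4% of its length and the median distal region over 0.525%, and 687 very wide regions had no island base. Accessibility per length, in normalised CPM per kb (counts set against each library's total after TMM scaling), had a median of 7.20 in very wide and 3.35 in narrower regions. It was 8.77 at coding promoters and 5.34 in distal very wide regions. Because width and abundance come from the same region calls, these levels are descriptions. How the ends of a region were set is not given in the sources used here.

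The share of coding promoters rose with width only up to the threshold. It was 2.38% of regions under 500 bp, 15.2% at 1000 to 1499 bp, 37.0% at 1500 to 1999 bp and 53.6% at 2500 to 2999 bp. Past 3000 bp it stayed near that level, with 52.5% at 3000 to 3999 bp, 46.1% at 5000 to 7499 bp and 60.8% of the 79 regions of at least 7500 bp. Regions that reached only a non-coding start continued to rise, from 8.63% at 3000 to 3999 bp to 17.7% at 7500 bp or more. The median island share went the other way, from 34.5% at 2500 to 2999 bp to 12.6% at 7500 bp or more.

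**Figure D1:**
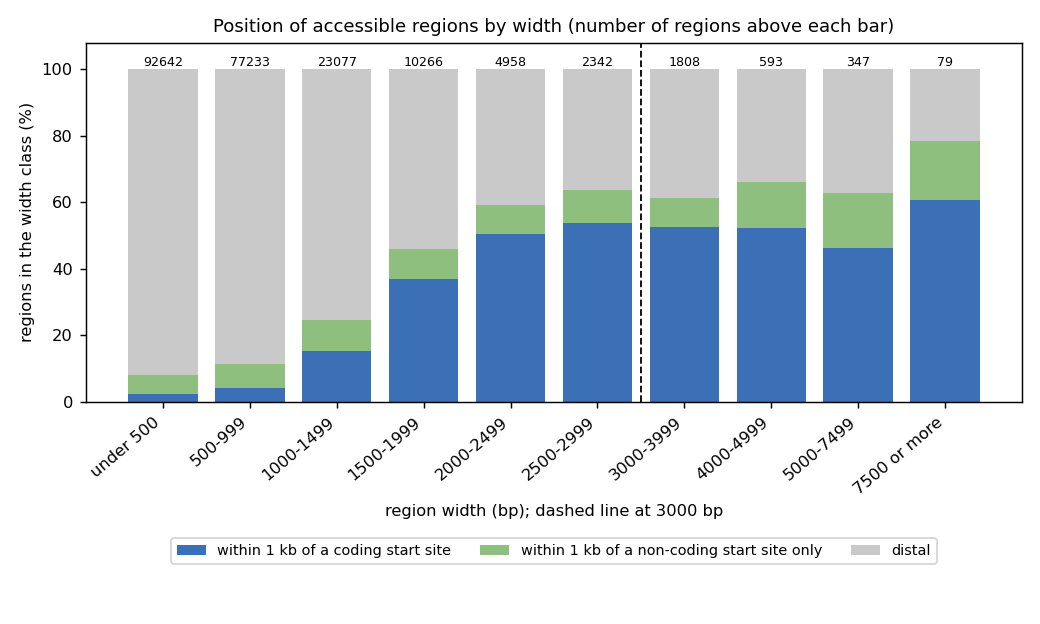
Stacked bars give the share of regions (y axis, percent) near a coding start site, near a non-coding start site only, or distal, by region width (x axis, bp), with the number of regions above each bar and a dashed line at 3000 bp. Coding promoters make up 2.38% of regions under 500 bp, 53.6% at 2500 to 2999 bp and 52.5% at 3000 to 3999 bp.

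The 12 regions of at least 10000 bp named heat shock chaperone genes, stem cell genes and non-coding RNAs. The widest (12667 bp, chr15:25758479-25771145) covered the promoter of Myo10, an unconventional myosin of filopodia. Hspa8 (12540 bp, chr9:40797907-40810446), the constitutive Hsp70 chaperone whose introns encode snoRNAs, came next, and Hsp90ab1 with Slc35b2 (12047 bp, chr17:45563254-45575300) and Hsp90aa1 (10112 bp) code for both cytosolic Hsp90 chaperones. Klf2 (10776 bp), a naive pluripotency factor, Rcor2 (10261 bp), a partner of the demethylase Lsd1, Ssr2 (11141 bp), a subunit of the translocon-associated complex, and the nucleolin gene Ncl (10477 bp) also had one. The regions nearest to Zmynd8 (10985 bp) and Slc2a3 (10414 bp) and those at Gm26340 (12292 bp) and Gm28882 (11327 bp) completed them.

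Among the 5 widest, the chaperone promoters and Myo10 passed no test, while the Gm26340 and Gm28882 regions did. The Gm26340 region (chr5:134435465-134447756) was lower in D2-13B6 than in B6 (-0.46, adjusted p = 0.021). The Hspa8 region stood at 133, 149.2 and 148 normalised CPM in B6, 140 and 162 in B6-13D2, 158, 203 and 137 in D2-13B6 and 140, 139 and 132 in D2. Its groups overlapped. The Gm28882 region (chr1:118640697-118652023), which lies next to the naive pluripotency gene Tfcp2l1, was at 81.0, 87.0 and 84.9 CPM in B6, 95.2 and 105 in B6-13D2, 40.4, 44.1 and 43.8 in D2-13B6 and 71.4, 69.9 and 76.6 in D2. All D2-13B6 libraries lay below every other library, with a log2 fold change against B6 of -0.98 (SE 0.17, edgeR adjusted p = 1.1e-06). D2 exceeded D2-13B6 by 0.77 (SE 0.17, adjusted p = 0.00020).

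Per length, 1 region stood apart. The region over AY036118 (chr17:39842703-39849000, 6298 bp), which resembles ribosomal RNA genes and is island over 96.3% of its bases, reached 873 CPM per kb and took 0.440 to 0.875% of a library's counts on these chromosomes. Its reads can come from ribosomal DNA copies elsewhere, so its level is uncertain. Next was Gm21738 (chr14:19415484-19419779, 66.6 CPM per kb), 82.7% soft-masked and equally uncertain. The next were the promoters of Izumo4 and Mob3a (chr10:80700440-80703457, 28.6 CPM per kb), of Zfp687 (chr3:95013538-95017173, 26.1) and of Dcaf6 and Mpc2 (chr1:165459201-165462206, 25.5). At the other end, an exonic region near Zfp979 (chr4:147636637-147640423) had 0.125 CPM per kb, with 0.788 to 0.898 CPM in B6 and 0 to 0.115 in D2 (log2 fold change -3.48, SE 0.62, adjusted p = 1.2e-05). The low values there rest on few reads.

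Total counts in regions ran from 15198496 to 43042955 per library, with greater depth in both D2-background lines than in both B6-background lines. Every very wide region passed the filter on low counts, so all 2827 were tested among 246840 regions. Libraries of a line differed by more than counting error over these regions, with a chi-square of 3.47 to 18.4 per degree of freedom, so none was a copy of another. D2-13B6 replicate 3 stood apart from the other D2-13B6 libraries in several values below. The shared list held promoter regions of 12 of 12 listed embryonic stem cell markers, 10 of them with a very wide one. Each of the 12 had reads in every library. Regions at 7 of 9 listed fibroblast feeder markers summed to 81.7 to 86.3 CPM in B6, 70.6 to 81.3 in B6-13D2, 131 to 180 in D2-13B6 and 101 to 104 in D2. All 7 had reads in every library, while Col3a1 and Lum had no region. Each of the 7 had its highest level in D2-13B6, such as Col1a2 at 7.25 to 8.62 CPM in B6 and 14.9 to 21.2 in D2-13B6. Regions at 8 of 9 listed primitive endoderm markers summed to 136 to 147 CPM in B6 and 153 to 204 in D2-13B6. Gata6, Pdgfra and Dab2 were higher in D2-13B6, with Dab2 at 25.9 to 41.2 against 8.23 to 13.3 in B6. Sox17 (15.0 to 18.5 against 21.8 to 25.2 in B6), Foxa2 and Gata4 were lower, while Lamb1 and Sox7 overlapped. Regions at 7 of 8 trophoblast markers summed to 149 to 151 CPM in B6 and 99.8 to 125 in D2-13B6. The part of these markers in any difference that involves D2-13B6 was not tested. In bulk libraries, fewer cells with an open region and less opening per cell cannot be told apart.

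Very wide regions took nearly the same share of counts in 3 of the 4 lines. Their share of the counts on chromosomes 1 to 19 without 11 and 13 was 11.5% ± 0.169 (SD, n = 3) in B6, 11.6% ± 0.149 (n = 2) in B6-13D2, 11.4% ± 0.210 (n = 3) in D2 and 10.5% ± 0.266 (n = 3) in D2-13B6. Beneath the totals, the classes moved in opposite ways. Coding promoters took 6.28, 6.16 and 6.34% of counts in the B6 libraries, 6.33 and 6.36% in B6-13D2, 7.03, 7.11 and 6.38% in D2-13B6 and 7.08, 6.63 and 6.89% in D2. Distal regions took 3.23, 3.32 and 3.26% in B6, 3.39 and 3.48% in B6-13D2, 2.10, 2.13 and 2.27% in D2-13B6 and 2.81, 2.84 and 2.73% in D2. Both D2-background lines lay above B6 at promoters and below it in distal regions, with D2-13B6 lowest in distal regions and its replicate 3 close to the B6 promoter share.

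The ratio of both shares does not depend on any scaling of a whole library. It was 1.94, 1.86 and 1.94 in B6, 1.87 and 1.83 in B6-13D2, 2.52, 2.33 and 2.52 in D2 and 3.35, 3.33 and 2.80 in D2-13B6. The groups did not overlap between D2 and B6, D2-13B6 and B6, or D2 and D2-13B6, where the means differed by 0.545, 1.25 and -0.703. An exact two-sided permutation test gave p = 0.1 for each of these, the smallest value that 3 against 3 libraries allow, and 0.167 after Benjamini-Hochberg adjustment over the 5 comparisons. For B6-13D2 against B6 the exact p was 0.4. The same direction held in narrower coding promoters, which took 23.4% ± 0.628 of counts in B6, 28.1% ± 1.27 in D2 and 28.9% ± 2.39 in D2-13B6 (SD, n = 3 each). The promoter part of the shift was thus not particular to very wide regions. The distal part was less shared. Median log2 fold changes of very wide distal regions were -0.14 in D2 and -0.52 in D2-13B6, each against B6. Narrower distal regions had -0.04 and -0.18, and the 602 of them in the same range of abundance had 0.20 and 0.39.

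**Figure D2:**
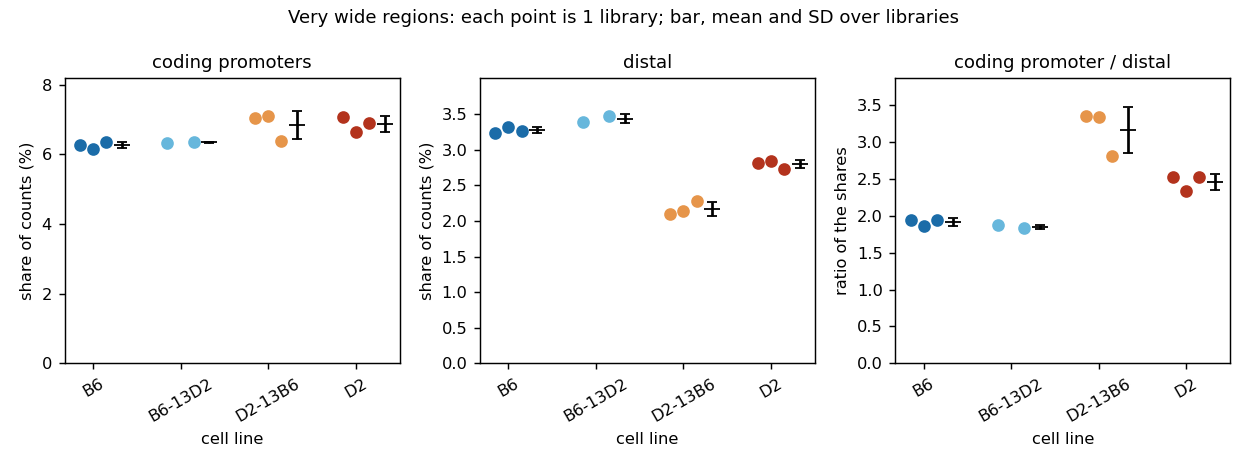
Share of each library's counts on chromosomes 1 to 19 without 11 and 13 (y axes, percent) in very wide coding promoters and in distal very wide regions, and the ratio of both, for the 4 lines (x axes), with 1 point per library and the mean and SD beside them. Distal shares are 3.23 to 3.48% in B6 and B6-13D2 libraries, 2.73 to 2.84% in D2 and 2.10 to 2.27% in D2-13B6.

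The comparison of D2 with B6, which asks how strain background alters open chromatin, called 833 very wide regions at an edgeR adjusted p under 0.05, or 29.5%, against 22.5% of all regions tested. Of these, 529 were higher in D2 and 304 lower, and over all regions 13.7% were higher and 8.80% lower. Total counts gave 581 higher and 733 lower and loess offsets on abundance 156 and 1370. Of 4707 narrower regions in the same range of abundance, 61.9% were called. Of those regions 3830 were coding promoters, so by class the shares were 68.8% against 32.1% of very wide regions at coding promoters and 30.7% against 26.1% in distal regions. The share called fell with width among the widest, from 39.5% at 2500 to 2999 bp to 31.5% at 3000 to 3999 bp and 17.7% at 7500 bp or more. A change of at least 2-fold with a call was seen in 65 very wide regions (2.30%). The share over all regions was not counted for this comparison alone.

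Coding promoters and distal regions went opposite ways between D2 and B6. At coding promoters 427 regions were higher in D2 and 44 lower, with a median log2 fold change of 0.27. That was 29.1% and 3.00%, where narrower coding promoters had 35.9% and 4.00% (median 0.32). Among distal regions 77 were higher and 197 lower, with a median of -0.14, and at non-coding starts 25 were higher and 63 lower (median -0.11). The distal shares were 7.34% and 18.8%, where narrower distal regions had 11.8% and 9.29% (median -0.04). The median over all regions tested was -0.01. The split went with island content: of 842 coding promoters that were island over at least 40%, 340 were higher and 4 lower (median 0.38), while of 107 coding promoters with under 10% island 9 were higher and 22 lower (median -0.12). The promoter direction depends on scaling, since loess offsets on abundance turned its median to -0.12 (101 higher, 468 lower) and the distal median fell further to -0.44. The gap between both medians was 0.41, and it lay between 0.32 and 0.45 in all 21 settings fitted. Single libraries moved the number of calls: it was 542, 475, 519 and 544 without B6 replicate 1, B6 replicate 2, D2 replicate 1 and D2 replicate 3, and 1304 without D2-13B6 replicate 3, which enters through the shared estimate of spread. At coding promoters the calls were 194 higher and 27 lower without B6 replicate 2, and 680 and 72 without D2-13B6 replicate 3.

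**Figure D3:**
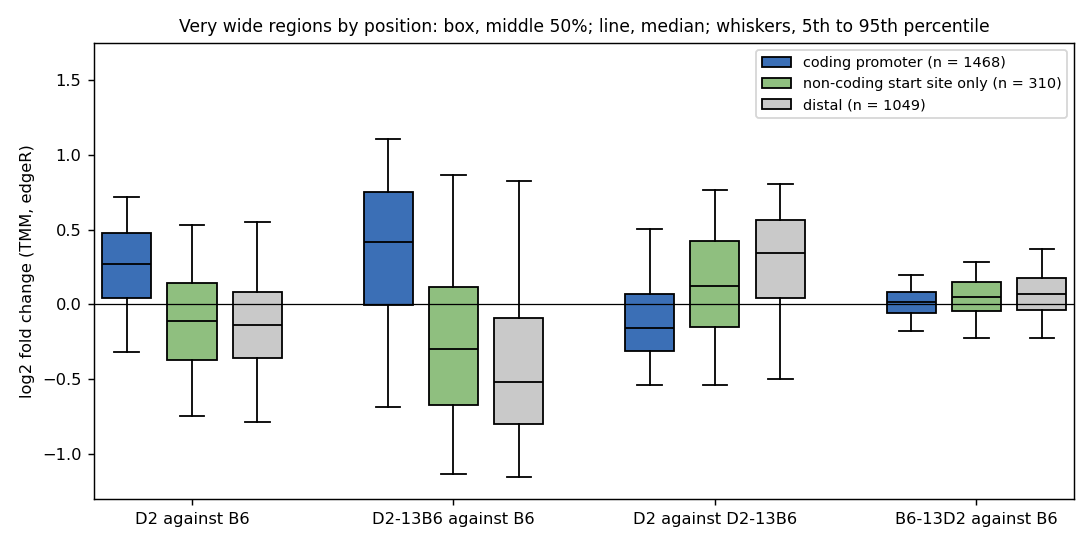
Log2 fold change with TMM scaling (y axis) of very wide regions in 4 pairwise comparisons (x axis), by annotation class, with boxes for the middle 50% of regions, a line at the median and whiskers from the 5th to the 95th percentile. Coding promoters centre at 0.27 and distal regions at -0.14 for D2 against B6, and at 0.42 and -0.52 for D2-13B6 against B6, while boxes of B6-13D2 against B6 lie near 0.

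The differences with the smallest p-values lay outside coding promoters. The intergenic region nearest to Ust (chr10:8558490-8561811, 39665 bp away) was at 4.72, 3.78 and 3.98 CPM in B6, 5.19 and 4.29 in B6-13D2, 16.96, 17.4 and 12.6 in D2-13B6 and 25.4, 25.03 and 27.2 in D2. All D2-background libraries exceeded all B6-background ones, and D2 exceeded B6 by 2.62 on the log2 scale (SE 0.18, adjusted p = 1.2e-18). The region over Gm38312 (chr1:89093905-89098706) went the other way, with 27.2, 29.9 and 31.5 CPM in B6, 29.1 and 33.6 in B6-13D2, 7.12, 5.61 and 7.39 in D2-13B6 and 5.76, 6.83 and 6.88 in D2 (log2 fold change -2.19, SE 0.17, adjusted p = 3.1e-16). Its 2 levels followed the background and were alike within it. Whether D2 reads map to the mm10 build as well as B6 reads was not tested, here or at other regions low in D2. Intergenic chr6:47647743-47651697 near Gm25283 (2.07) and the non-coding starts of 1700030C10Rik (-2.10) and Gm18433 (-2.09) were the next by p-value. The largest fold change in either direction was at the non-coding start of Gm10222 (chr1:24611448-24616261, 4814 bp), which was singled out after its values were seen and resembles mitochondrial genes. It was at 3.46, 2.50 and 3.37 CPM in B6, 3.55 and 3.29 in B6-13D2, 142, 100.5 and 141.9 in D2-13B6 and 40.8, 129.9 and 325 in D2 (5.71 for D2 against B6, SE 0.79, adjusted p = 0.0014). All D2-background libraries were far above the rest, with a wide spread among those of D2, and its reads can come from mitochondrial DNA, so its level is uncertain.

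Between D2 and B6-13D2, which both carry the D2 interval, 709 regions were called (25.1%, against 18.8% of all), 378 higher and 331 lower, where all regions had 11.6% and 7.24%. This balance depends on scaling, with 476 higher and 778 lower under total counts, 119 and 1312 under loess offsets on abundance and 264 and 350 under loess offsets on GC content. That number was 269 and 195 without B6-13D2 replicates 1 and 2, 422 and 439 without D2 replicates 1 and 3, and 1092 and 1201 without D2-13B6 replicates 2 and 3. By p-value the Ust (2.45) and Gm38312 (-2.27) regions again came first, with Gm48023 (chr10:70840699-70848648, 1.94) and the region near Gm18896 (chr16:25523170-25526481, -2.07) among the next.

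Of the 5 pairwise comparisons, D2-13B6 against B6, lines that both carry the B6 interval, had the most calls: 1832 very wide regions (64.8%, against 41.7% of all regions and 84.7% of narrower regions of like abundance). Of these, 928 were higher and 904 lower, where all regions had 21.6% and 20.1%, and the balance was 696 and 1465 under total counts and 291 and 1754 under loess offsets on abundance. At coding promoters 772 were higher and 154 lower (median 0.42), and among distal regions 106 were higher and 616 lower (median -0.52). That was 52.6% and 10.5% of coding promoters, much like the 51.8% and 11.8% of narrower ones (median 0.48). Distal regions had 10.1% and 58.7%, where narrower distal ones had 18.7% and 20.5% (median -0.18). At non-coding starts 50 were higher and 134 lower (median -0.29), while all regions tested had a median of -0.13. Under total counts the median of all regions moved to -0.43 and the medians of coding promoters and distal regions to 0.11 and -0.82. Loess offsets on abundance turned the coding promoter median to -0.17 (216 higher, 637 lower), and the distal median was negative in every scaling. The gap between both medians was 0.94 and stayed between 0.75 and 1.03 in the 21 settings. At island-rich coding promoters 550 of 842 were higher and 32 lower (median 0.60), and of 789 distal regions with under 10% island 62 were higher and 495 lower.

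Mbnl1 (chr3:60498965-60502467), which encodes a splicing regulator, had the coding promoter that rose most in D2-13B6, with 13.5, 10.6 and 13.9 CPM in B6, 17.9 and 15.2 in B6-13D2, 39.4, 48.2 and 31.8 in D2-13B6 and 27.2, 23.8 and 28.9 in D2 (1.65 against B6, SE 0.18, adjusted p = 2.1e-12). D2-13B6 and D2 libraries were all above those of the B6 background. The fall with the smallest p-value was in an intronic region whose nearest start site is that of Atp6v1h, a subunit gene of the vacuolar proton pump (chr1:5108319-5111341, 72.2% soft-masked), from 66.3, 74.4 and 81.9 CPM in B6 and 62.2 and 74.7 in B6-13D2 to 13.1, 11.3 and 16.2 in D2-13B6 and 24.7, 23.7 and 21.7 in D2 (-2.45 against B6, SE 0.18, adjusted p = 2.2e-18). An exonic region nearest to Pkd1l2 (chr8:117014694-117019956) fell by 2.29 (adjusted p = 1.0e-16) and was intermediate in D2, at 18.1 to 21.7 CPM. The non-coding start of Gm29346 (chr1:120757290-120760471) rose by 1.72 on the log2 scale in D2-13B6 against B6, from 13.6, 13.7 and 14.6 CPM in B6 to 40.2, 55.9 and 41.5.

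In the D2 background, D2 with its own interval and D2-13B6 with the B6 interval differed in 877 very wide regions (31.0%, against 23.7% of all regions), with 619 up in D2 and 258 down. Without D2-13B6 replicate 3 the number was 1471 and the balance turned, with 685 up and 786 down. It was 431 and 325 with RLE size factors, 545 and 382 with loess offsets on GC content, 570 and 453 with DESeq2, 1172 and 219 under total counts and 1138 and 229 under loess offsets on abundance. Over all regions the balance was the reverse, with 8.53% higher and 15.2% lower. The distal class carried the excess, with 441 higher and 68 lower (median 0.34) of 1049, and non-coding starts had 78 higher and 26 lower (median 0.12). The distal shares were 42.0% and 6.48%, where narrower distal regions had 7.91% and 15.0% (median 0.07). Narrower coding promoters had 5.54% higher and 16.4% lower (median -0.16). Very wide coding promoters had 100 higher (6.81%) and 164 lower (11.2%, median -0.15), a direction that rests on single libraries and on scaling. Without D2-13B6 replicate 3 they were 105 and 624, without D2-13B6 replicate 2 they were 155 and 79, without D2 replicate 2 they were 159 and 101, and total counts gave 318 and 139 with a median of 0.03. The distal median stayed positive in every scaling, and the promoter median minus the distal one, -0.50, ranged from -0.62 to -0.39.

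The exonic region nearest to Gm47306 (chr8:110518695-110524102, 19710 bp away) had the largest rise in D2 over D2-13B6. Its libraries had 27.1, 27.4 and 27.8 CPM in B6, 39.8 and 42.8 in B6-13D2, 12.6, 10.4 and 12.8 in D2-13B6 and 40.3, 38.0 and 38.8 in D2 (1.71, SE 0.17, adjusted p = 9.1e-12). Both lines with the D2 interval lay above both with the B6 interval, although B6-13D2 against B6 did not pass the test (0.59, adjusted p = 0.17). The regions at Ube2l6, which encodes a conjugating enzyme for the ubiquitin-like protein ISG15 (1.25), and near Gsta3, a glutathione transferase gene (1.21), were next. The exonic region nearest to Itgb1, the beta-1 integrin gene (chr8:128730005-128733246), was lower in D2, with 3.68, 4.42 and 4.99 CPM against 9.14, 11.7 and 8.91 in D2-13B6 and 3.49, 3.35 and 4.16 in B6 (-1.19, SE 0.18, adjusted p = 3.2e-07). Only D2-13B6 of the 4 lines was high there. The intergenic region near Gm21897 (-1.11) and the Gm29346 start (-1.06) followed.

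On the B6 background few very wide regions differed with the interval. B6-13D2 against B6 called 13 (0.460%, against 0.474% of all regions), 8 higher and 5 lower where all regions had 0.139% and 0.335% in the fit of all lines. All regions include chromosome 13, which holds the interval. Narrower regions on the chromosomes of the very wide ones had 0.400% called, 0.0811% higher and 0.318% lower. In a fit of these 2 lines only, 98 of 2827 very wide regions were called against 2875 of 242179 of all regions, a larger share. In the fit of all lines, the class medians of very wide regions were 0.02 at coding promoters and 0.07 in distal regions. No coding promoter was called, and 11 of the 13 were distal, as were 780 of 837 narrower regions called. The number of very wide regions called was 5 and 4 without B6-13D2 replicates 1 and 2, 8 without B6 replicate 1, and 21 and 25 without D2-13B6 replicates 2 and 3.

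The strongest of the 13 was the intergenic region 3756 bp from Gm5566 (chr5:149651230-149657467, 6238 bp), whose sequence is shown above. It had 12.8, 12.0 and 11.4 CPM in B6, 33.7 and 32.6 in B6-13D2, 12.8, 12.6 and 13.2 in D2-13B6 and 22.6, 24.5 and 21.2 in D2. The 6 libraries with the B6 interval were at 11.4 to 13.2 CPM and the 5 with the D2 interval at 21.2 to 33.7. The log2 fold change with the D2 interval was 1.46 on the B6 background (SE 0.18, adjusted p = 6.9e-08) and 0.82 on the D2 background (SE 0.16, adjusted p = 4.7e-05). D2-13B6 against B6, which share the interval, differed by 0.09 (SE 0.17, adjusted p = 0.69). The lines with the D2 interval did differ, with every D2 library (21.2 to 24.5 CPM) below both of B6-13D2 (32.6 and 33.7 CPM).

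At Gm12495 (chr4:53337604-53341793, intergenic, 29378 bp away) background and interval both counted. Its libraries had 10.05, 8.23 and 8.58 CPM in B6, 19.8 and 17.04 in B6-13D2, 24.1, 23.7 and 20.2 in D2-13B6 and 41.1, 40.0 and 43.2 in D2. The 4 lines did not overlap, and the D2 interval went with a rise of 1.04 on the B6 background (SE 0.19, adjusted p = 0.00050) and of 0.87 on the D2 background (SE 0.16, adjusted p = 1.9e-05). The region near Gm49580 (chr16:18016159-18019573, 67% soft-masked) rose by 1.28 and 0.65, and the one near Sccpdh, a putative dehydrogenase gene (chr1:179648715-179652424), by 0.81 and 1.04.

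The lower regions were headed by the non-coding start of Gm18433 (chr3:93706881-93710034) and an intronic region near Bst1, which encodes an ectoenzyme that consumes NAD (chr5:43813375-43816532), both at -1.11. Gm18433 had 21.2, 28.2 and 21.3 CPM in B6 and 11.9 and 9.87 in B6-13D2, with 6.70, 6.55 and 7.497 in D2-13B6 and 6.12, 4.98 and 5.39 in D2. The region 44910 bp from Hmga2, a chromatin architecture gene (chr10:120521379-120524401), fell by 1.07 (SE 0.21, adjusted p = 0.0015) on the B6 background and by 0.44 (SE 0.17, adjusted p = 0.043) on the D2 background. The others were higher near Gm37025, Vwa8, Nuggc and Gm44052 (0.72 to 0.86) and lower near Cggbp1 (-0.98) and Ildr1 (-0.94).

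Both interval comparisons share no library. Called in both with the same sign were 8 of 2827 very wide regions, or 0.283%, against 0.194% of all regions.

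**Figure D4:**
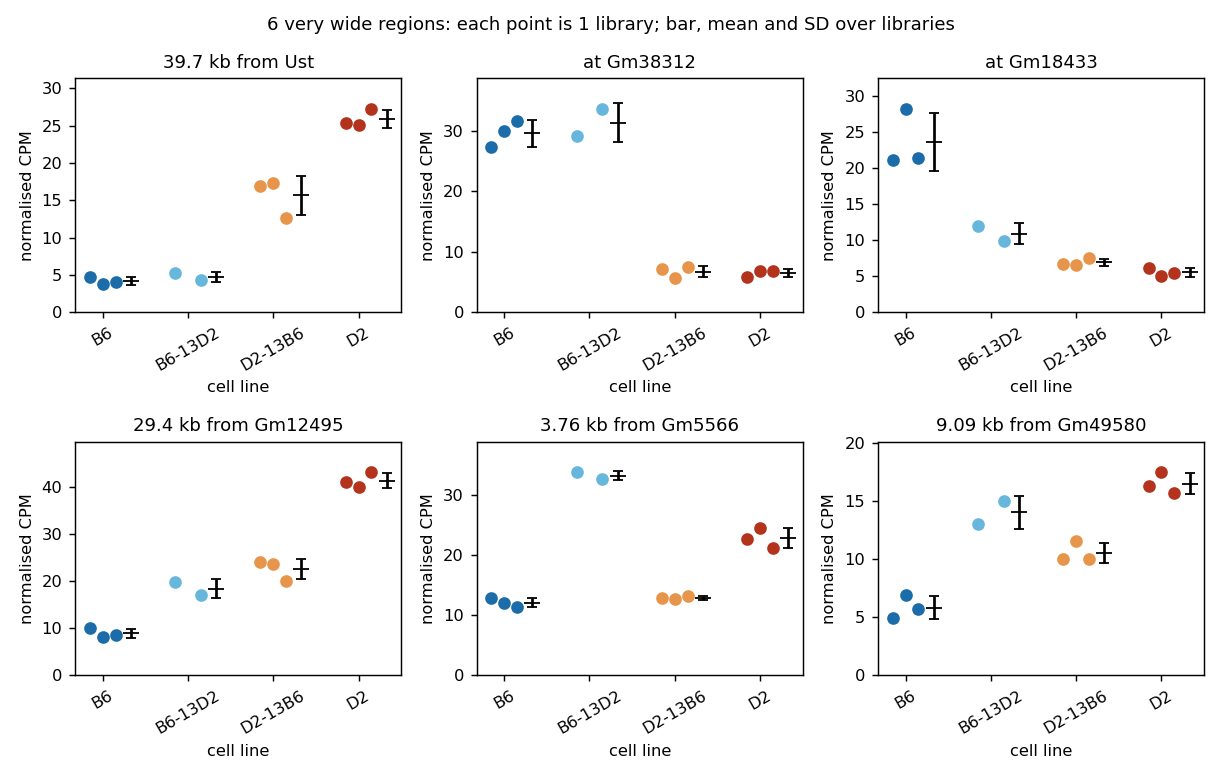
Normalised CPM (y axes, linear from 0) of 6 named very wide regions in the libraries of each line (x axes), with 1 point per library and the mean and SD beside them. The Gm5566 region is at 11.4 to 13.2 CPM in both lines with the B6 interval and at 21.2 to 33.7 CPM in both with the D2 interval, while the Gm38312 region splits by background.

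The interaction subtracts the D2 interval's effect on the D2 background from its effect on the B6 background. It was called in 119 very wide regions (4.21%, against 6.54% of all regions), 27 positive and 92 negative, where all regions had 4.55% positive and 1.99% negative. Among narrower regions of like abundance 2.61% were called. The balance of signs was not stable: it was 29 positive and 32 negative with RLE size factors, 77 and 80 with loess offsets on GC content, 88 and 121 with DESeq2, and 317 and 254 without D2-13B6 replicate 3, against 52 and 576 under total counts and 66 and 573 under loess offsets on abundance. Of the 119, 77 were distal and 20 coding promoters, where the 13299 narrower regions called included 11822 and 566. The interval effect was larger in the D2 background in 110 of the 119, and its estimates had opposite signs in 89. In 112 the D2-background comparison itself was called, and in 3 the B6-background one. Over all regions these 2 comparisons called 23.7% and 0.474%. Matching counts for the other regions called in the interaction were not made, so these are not shown to be particular to very wide regions. Near Vwa8 (chr14:79139181-79142848) libraries had 15.8, 14.6 and 16.5 CPM in B6, 28.1 and 27.6 in B6-13D2, 13.2, 15.4 and 13.7 in D2-13B6 and 10.5, 12.6 and 10.5 in D2, so the D2 interval went with a rise on the B6 background and lower values on the other (interaction 1.16, SE 0.24, adjusted p = 0.0023). An exonic region near Ildr1 (chr16:36706747-36709912) was the mirror image, with 21.5, 18.97 and 21.7 CPM in B6, 12.5 and 9.12 in B6-13D2, 12.5, 14.5 and 11.2 in D2-13B6 and 18.6, 16.8 and 16.6 in D2 (-1.38, SE 0.26, adjusted p = 0.00076). The number called depended on single libraries. It was 12 and 11 without B6-13D2 replicates 1 and 2, 44, 50 and 39 without B6 replicates 1, 2 and 3, 35, 230 and 56 without D2 replicates 1, 2 and 3, and 219 and 571 without D2-13B6 replicates 2 and 3.

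Genes of the pluripotency network often had very wide promoters. Of 37 listed pluripotency genes with a promoter region on these chromosomes, 24 (64.9%) had a very wide one, against 11.2% of all coding genes. They had 25 regions, since Tet1, an enzyme that oxidises methylcytosine, had a pair. Listed genes with only narrower regions included Zfp42, Dppa3, Fgf4, Klf5 and Dnmt3b. Between D2 and B6, 2 of 25 regions were called (8%, against 22.5% of all regions and 29.5% of very wide ones), both lower in D2: Lin28a, an inhibitor of let-7 maturation (-0.61), and Prdm14, a repressor of methyltransferase genes (-0.50). None was called between B6-13D2 and B6. The D2 against B6 count depends on scaling, with 6 lower under total counts and 18 lower under loess offsets on abundance (median -0.43), and none higher in either.

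In D2-13B6, the pluripotency promoters split. Against B6, 16 were lower and 5 higher (64% and 20%, median -0.51), where very wide coding promoters had 10.5% lower and 52.6% higher (median 0.42) and all regions 20.1% and 21.6%. Loess offsets on abundance gave 21 lower and 0 higher and total counts 19 and 3, so the higher calls depend on scaling. Pou5f1 (chr17:35501875-35507508, 5634 bp), the central factor of the network, was at 65.6, 78.6 and 67.9 CPM in B6, 64.6 and 69.9 in B6-13D2, 31.2, 37.6 and 35.8 in D2-13B6 and 59.8, 62.5 and 49.97 in D2. All 3 D2-13B6 libraries were below all others, with -1.02 against B6 (SE 0.17, adjusted p = 6.3e-07), and D2 exceeded them by 0.72 (SE 0.17, adjusted p = 0.00056). Its interaction was -0.79 (adjusted p = 0.042). Nanog (chr6:122705612-122708711, 3100 bp), which stabilises the naive state, was at 20.4, 21.3 and 24.2 CPM in B6, 23.2 and 23.9 in B6-13D2, 11.9, 12.5 and 11.4 in D2-13B6 and 21.5, 17.6 and 19.8 in D2 (-0.88 against B6, SE 0.17, adjusted p = 8.6e-06). D2-13B6 was again lowest, while B6 overlapped with B6-13D2 and with D2, unlike at Pou5f1, where D2 lay below both B6-background lines. Esrrb (chr12:86469074-86476201), an orphan nuclear receptor of the naive network, had 43.5, 46.0 and 45.8 CPM in B6, 45.1 and 47.3 in B6-13D2, 23.2, 27.3 and 27.0 in D2-13B6 and 39.8, 37.4 and 34.1 in D2 (-0.80, SE 0.16, adjusted p = 3.8e-05).

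Also lower in D2-13B6 than in B6 were Prdm14 (-0.89), the nuclear receptor gene Nr5a2 (-0.87), Lin28a (-0.84), Dppa5a (-0.80), Tfcp2l1 (-0.76), the Nodal co-receptor gene Tdgf1 (-0.71), the wider Tet1 region (-0.69), Dppa2 and Nodal (-0.57 each), Utf1 (-0.51), Lefty2 (-0.49), Sall4 (-0.48) and Rif1 (-0.45). Higher were Klf4 (0.80), Tbx3 (0.76), Id3 (0.75), Spry4 (0.47) and Klf2 (0.42). Klf4 (chr4:55528870-55534550), a Krüppel-like factor downstream of LIF, had 41.6, 39.8 and 37.7 CPM in B6, 34.3 and 33.6 in B6-13D2, 73.7, 76.1 and 57.8 in D2-13B6 and 54.7, 50.1 and 51.7 in D2 (SE 0.17, adjusted p = 5.0e-05). Its D2-background libraries were all above its B6-background ones. Island content differed among them: Tbx3 was island over 85.1% of its bases and Klf4 over 68.9%, while Pou5f1 was island over 4.31% and Nanog over 13.5%. Sox2, with 81.5% island, did not pass the test (-0.24, adjusted p = 0.24), nor did Mycn (-0.35), Trim28 (0.20) and the narrower Tet1 region (-0.16).

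Between D2 and D2-13B6, 14 pluripotency promoters were higher in D2 and 1 lower (56% and 4%, median 0.49, against 0.03 over very wide regions). Very wide coding promoters had 6.81% higher and 11.2% lower (median -0.15), and all regions 8.53% and 15.2%. The highest of the 14 were Tfcp2l1 (0.73), Pou5f1 and Nanog (0.72 each), Rif1, a replication timing factor (0.71), Tdgf1 (0.69) and Nr5a2 (0.68). Sox2 (chr3:34647632-34651818) was at 30.4, 30.6 and 30.9 CPM in B6, 31.0 and 30.9 in B6-13D2, 27.8, 26.8 and 22.9 in D2-13B6 and 40.9, 34.2 and 35.2 in D2 (0.51, SE 0.16, adjusted p = 0.015). Id3, a target of BMP signalling, was lower in D2 (-0.53, adjusted p = 0.016). These comparisons share the D2-13B6 libraries with the one against B6, so the results are not independent. The number lower in D2-13B6 against B6 was 11 to 21 over all settings fitted, and the number higher in D2 against D2-13B6 was 7 to 19. Most of the listed stem cell markers are on this list. Summed over all of them, regions came to 300 to 359 CPM in D2-13B6, 421 to 467 in D2 and 445 to 467 in B6. D2-13B6 also had the higher summed feeder and primitive endoderm levels and lower summed trophoblast levels given above, whose part in these differences was not tested. Single primitive endoderm markers were split in direction.

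**Figure D5:**
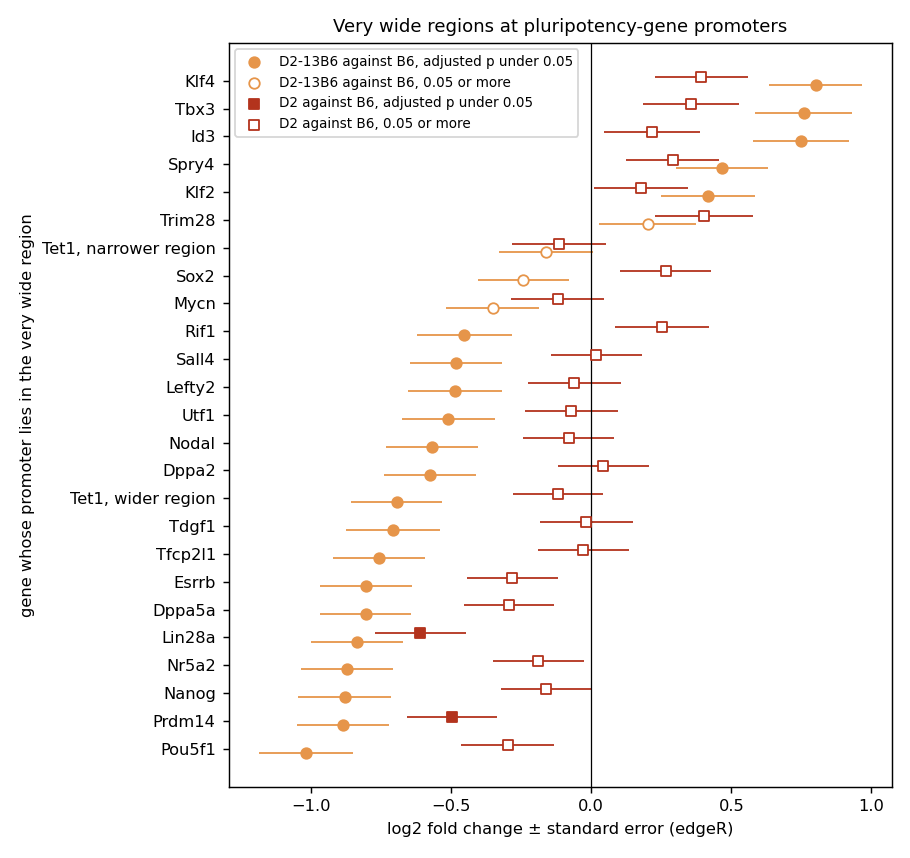
Log2 fold change and standard error (x axis) of the very wide regions at listed pluripotency genes (y axis) for D2-13B6 against B6 (circles) and D2 against B6 (squares), filled where the edgeR adjusted p is under 0.05. In D2-13B6 16 regions lie below 0 and 5 above it with filled circles, from -1.02 at Pou5f1 to 0.80 at Klf4, and D2 has filled squares at Lin28a and Prdm14 only.

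Other gene families differed in how often they had very wide promoters and in how these moved. Histone genes (9 of 16 genes with a region, 56.2%) and ribosomal protein genes (39 of 72, 54.2%) often had one, patterning transcription factors (53 of 171, 31.0%), signalling genes (22 of 80, 27.5%) and chromatin regulators (22 of 93, 23.7%) less often, and genes named Zfp, mostly zinc finger proteins, in 28 of 311 (9.003%), near the 11.2% of all coding genes. In D2-13B6 against B6, 17 signalling regions were higher and 2 lower (median 0.68), 17 and 1 of the Zfp regions (0.57), 14 and 2 of the chromatin regulators (0.55), 11 and 2 of the ribosomal protein regions (0.25), 15 and 8 of the patterning factors (0.05) and 4 and 0 of the histone regions (0.47). Over all very wide coding promoters 52.6% were higher and 10.5% lower (median 0.42), so the Zfp regions (60.7% higher) and chromatin regulators (58.3%) lay near that share, signalling genes (73.9%) above it and patterning factors (27.8%) and ribosomal protein genes (27.5%) below it. In D2 against B6 the same lists had 7 and 0 (0.37), 9 and 0 (0.41), 10 and 1 (0.41), 4 and 5 (-0.01), 7 and 1 (0.22) and 1 and 0, where coding promoters had 29.1% higher and 3.00% lower (median 0.27). Under loess offsets on abundance the medians of these lists were negative in both comparisons, at -0.01 to -0.59, and total counts turned those of patterning factors (-0.26) and ribosomal protein genes (-0.07) in D2-13B6 against B6. None of these regions was called in B6-13D2 against B6.

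Single members give the scale. Dusp1 (chr17:26506602-26509881), a phosphatase that switches off MAP kinases, was at 30.9, 33.1 and 35.7 CPM in B6, 28.8 and 33.8 in B6-13D2, 70.2, 92.5 and 65.3 in D2-13B6 and 52.8, 51.3 and 42.9 in D2. The D2-background libraries were all above the rest, with 1.20 for D2-13B6 against B6 (SE 0.17, adjusted p = 2.0e-08) and -0.63 between D2 and D2-13B6 (SE 0.17, adjusted p = 0.0028). Fzd7 (0.85), a Wnt receptor gene, Irx5 (0.95) and Foxo3 (0.88), transcription factor genes, Setd5 (0.89) and the methyltransferase gene Kmt5c (0.79), and H2afz (0.82), which encodes the histone variant H2A.Z, were higher in D2-13B6 than in B6 as well. The Rpl3 region (chr15:80074405-80084349, 9945 bp), which also holds snoRNA genes, was lower in D2 than in B6 (-0.52, SE 0.19, adjusted p = 0.033). It had 143, 192 and 173 CPM in B6 and 132, 132 and 91.1 in D2, a wide spread within each line.

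Over the 5 pairwise comparisons, which share libraries, 2016 very wide regions (71.3%) were called at least once, against 49.6% of all regions, and 811 (28.7%) in none. Changes of at least 2-fold were rarer among them than among regions at large, with 362 (12.8%) called and at least 2-fold in some comparison, against 25.3% of all regions. Very wide regions also held more counts, with a median of 28.2 normalised CPM against 1.83 in narrower ones. The share among narrower regions of like abundance was not counted, so a link with width as such was not tested. Most of the 362 regions, 326, came from D2-13B6 against B6. D2 differed this far from B6-13D2 in 79 regions, from B6 in 65 and from D2-13B6 in 21, and B6-13D2 from B6 in 6. For single comparisons the share over all regions was not counted.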

How the data were processed

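ATAC-seq was measured in 11 libraries of 4 embryonic stem cell lines. The authors deposited a single table of raw read counts per region for all libraries, and per the file headers duplicates and mitochondrial reads had been removed. The submitters' processing notes name Trimmomatic 0.39, BWA 0.7.5, Picard 2.0.1, MACS 1.4.2, bedtools 2.9.2, edgeR 3.34.1 and the build mm10, with no roles. Whether reads or fragments were counted, and whether ends were shifted for Tn5, is not given in the sources used here.

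Very wide regions were taken by width (at least 3000 bp) off chromosomes 11, 13 and the sex chromosomes. All regions were fitted together with edgeR's quasi-likelihood test (edgeR 4.0.16, R 4.3.3) with TMM scaling, filterByExpr and 1 coefficient per line. P-values were adjusted by Benjamini-Hochberg over 246840 regions, and a region is called at an adjusted p under 0.05. Normalised CPM are counts divided by the TMM-scaled library total, on edgeR's CPM scale. Annotation and sequence features came from GENCODE M21 and GRCm38, and promoter sequences from RefSeq (GRCm38.p6), where 1215 genes with a very wide promoter matched. The fit was checked on simulated counts with known changes.

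Named regions were the 5 widest, the 5 most and 2 least accessible per kb, the 3 with the smallest p-value in each direction of each pairwise comparison whose groups do not overlap, the 2 in each direction of the interaction, the 3 in each direction called alike in both interval comparisons, the 2 on each side of the width limit, all at listed pluripotency genes and the 3 most accessible of each other gene list. The other regions of at least 10000 bp, the other regions called in B6-13D2 against B6, Gm10222 and those under the other observations were added after their values were seen. The members and gene lists were chosen with earlier results of these data known. Counting error limits single libraries, and their number limits every test. Alternatives covered scaling, filter, tool, replicate block, width limit, lines fitted and each library left out.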

Additional observations from a re-analysis of the deposited data

Results flagged for a closer look

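By the interaction test, the D2 interval's effect differed between backgrounds in 119 very wide regions (edgeR adjusted p under 0.05 for the interaction, 4.21% against 6.54% of all regions and 2.61% of narrower regions of like abundance). The clearest in each direction were the intronic region near Vwa8 on chromosome 14 (1.16 on the log2 scale) and the exonic region near Itgb1 on chromosome 8 (1.31), and the exonic region near Ildr1 on chromosome 16 (-1.38) and the intergenic region 63397 bp from Gm17777 on chromosome 1 (-1.29). At Gm17777 (chr1:117456929-117460032, 67.4% soft-masked) D2 libraries had 22.8, 21.04 and 33.8 CPM and all others 8.32 to 15.2 CPM. D2 alone was high there, and D2 against D2-13B6 was 0.98 (SE 0.17, adjusted p = 7.3e-06) with -0.30 (SE 0.21, adjusted p = 0.83) for B6-13D2 against B6. The groups of 2 and 3 libraries are too small to look for outlying libraries by their gap to the others.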

How the results depend on the processing

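Values follow in the order D2 against B6, B6-13D2 against B6, D2 against D2-13B6, D2 against B6-13D2 and interaction, whose numbers of called regions were 833, 13, 877, 709 and 119. Total counts gave 1314, 27, 1391, 1254 and 628, and loess offsets on abundance gave 1526, 33, 1367, 1431 and 639. A fit of the 2 lines compared gave 1438, 98, 437 and 1263 for the pairwise ones, and RLE size factors and DESeq2 moved only the interaction beyond 1.5 times, to 61 and 209. A width limit of 2500 bp gave 1758, 20, 1559, 1526 and 223, and of 4000 bp 263, 5, 308, 236 and 40. Leaving out single libraries gave 475 to 1304, 4 to 25, 595 to 1471, 195 to 1201 and 11 to 571. D2-13B6 against B6 (1832) ran from 1590 to 2087 in this way, and the width limits gave 3491 and 623. The median over very wide regions under total counts and loess on abundance was -0.05 and -0.27 for D2 against B6 (0.08), 0.21 and 0.19 in the pair D2 and D2-13B6 (0.03), -0.31 and -0.49 for D2-13B6 against B6 (-0.00), -0.076 and -0.29 for D2 against B6-13D2 (0.05) and -0.16 and -0.15 for the interaction (0.01). Class medians under the same 2 scalings were 0.14 and -0.12 at coding promoters and -0.27 and -0.44 in distal regions for D2 against B6, 0.030 and 0.058 at coding promoters for D2 against D2-13B6 with 0.52 in distal regions under total counts, and 0.11 and -0.17 at coding promoters and -0.82 and -0.92 in distal regions for D2-13B6 against B6. The difference in the share of counts between D2 and B6 (-0.0909 percentage points) was 0.540 with a width limit of 2500 bp, and that between D2 and B6-13D2 (-0.252) was 0.298. Without single libraries the share differences stayed within -0.211 and -0.0168 for D2 minus B6, 0.0561 and 0.267 for B6-13D2 minus B6, 0.798 and 1.06 for D2 minus D2-13B6, -1.15 and -0.889 for D2-13B6 minus B6, and -0.373 and -0.147 for D2 minus B6-13D2. Of 123 results for single regions, 2206 of the alternative values kept direction and call, 242 lost the call, and 8 turned, all under loess on abundance in D2-13B6 against B6: Zfp687 (-0.26), Dcaf6 (-0.013), Id3 (-0.11), Klf2 (-0.51), Spry4 (-0.078), Sox12 (-0.34), Zfp143 (-0.092) and Kdm4b (-0.17). The cause was not tested. Replicate numbers did not pair the libraries: deviations of same-numbered libraries correlated at -0.0486 to 0.0683 over 15 pairs, and 4 of 11 libraries correlated best with their own number. With a replicate block the numbers called were 839, 13, 870, 709 and 98, and 1813 for D2-13B6 against B6. Depth limits regions with few reads, such as the one near Zfp979.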

Other observations

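Very wide regions at some further genes moved in ways not described above, and they were singled out after their values were seen. The promoter of Alad, an enzyme of haem synthesis (chr4:62517775-62521287), followed the background, with 21.9, 19.9 and 22.3 CPM in B6, 21.3 and 20.9 in B6-13D2, 52.9, 59.3 and 44.7 in D2-13B6 and 55.8, 52.5 and 52.6 in D2. No D2-background library came near a B6-background one, and D2 exceeded B6 by 1.33 on the log2 scale (SE 0.17, edgeR adjusted p = 6.0e-09). The promoters of Slc35f5, a member of a family of transporters (1.62, SE 0.18, adjusted p = 5.1e-12), and Irf2bp2, a transcriptional co-repressor (1.53, SE 0.18, adjusted p = 2.8e-11), were higher in D2-13B6 than in B6, with D2 at 41.9 to 51.3 and 85.7 to 98.4 CPM between them.

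Other regions set D2-13B6 apart from the remaining lines. The region over Malat1, an abundant nuclear non-coding RNA (chr19:5792463-5798472), was at 54.3, 85.02 and 69.6 CPM in B6, 50.8 and 68.3 in B6-13D2, 107, 244 and 164 in D2-13B6 and 73.1, 100.2 and 54.04 in D2. D2-13B6 exceeded B6 by 1.30 (SE 0.21, adjusted p = 2.2e-07) and D2 was lower than D2-13B6 by a log2 fold change of -1.18 (SE 0.20, adjusted p = 5.2e-06), and D2-13B6 replicate 2 was the highest. The non-coding start of Platr9, named as a pluripotency-associated transcript (chr4:34908732-34912802), went down instead, with 17.1, 18.9 and 19.4 CPM in B6, 21.01 and 20.1 in B6-13D2, 5.66, 4.61 and 7.29 in D2-13B6 and 13.9, 12.4 and 13.5 in D2 (-1.66 for D2-13B6 against B6, SE 0.17, adjusted p = 1.4e-12). The promoter of the tyrosine kinase gene Src (chr2:157415954-157421598) was at 36.3, 50.03 and 40.5 CPM in D2-13B6 and at 66.8 to 84.2 CPM in all other libraries (-0.79 for D2-13B6 against B6, SE 0.17, adjusted p = 9.9e-05). Summed feeder and primitive endoderm marker levels were higher and trophoblast levels lower in D2-13B6 than in B6, with single primitive endoderm markers split in direction. Their part in these differences was not tested, and the regions were picked because D2-13B6 stood apart.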
